A study of Mus musculus with 8 samples.

Results

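Transcripts of the nuclear genes of respiratory complexes II to V were described in tibialis anterior (TA) muscle, a fast-twitch muscle of the lower leg. Complex II (succinate dehydrogenase) and complex III (cytochrome bc1) pass electrons by way of cytochrome c to complex IV (cytochrome c oxidase), and the proton gradient built on the way drives complex V (ATP synthase). Several complex IV subunits come in pairs of paralogs, with one form typical of heart and skeletal muscle and the other found in most tissues. The genes were chosen by symbol (Sdha to Sdhd, Cyc1, Cycs, and names that start with Uqcr, Atp5, or Cox and a digit). They numbered 55 of the 12551 genes counted: 4 of complex II, 9 of complex III, cytochrome c (Cycs), 14 subunits of complex IV, 10 assembly or copper-handling factors of complex IV, 15 subunits of complex V, and Atp5s and Atp5sl, which carry the Atp5 name without being core subunits. Choosing by name therefore took in genes that are not structural subunits, and these were kept apart. Atp5mpl, Cox6b2, Cox7b2 and Cox8c also match by name in GENCODE M21 but were not analysed here, nor were the subunits encoded by mitochondrial DNA.

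RNA came from whole TA muscles of male mice, 7 weeks of age, 4 wild type (WT, Klotho wt/wt) and 4 littermates homozygous for a mutant Klotho allele (KL-/-). The mutation was present in every tissue, so effects that arise in muscle cannot be told apart from effects of Klotho loss elsewhere. The deposited values were read counts per gene, which summed to between 20860262 and 29273758 per library. Klotho (Kl) itself is not among the counted genes, and the genotypes rest on the labels. The batch date of KL-/- replicate 3 is later than that of the other 7 samples, and batch and mouse cannot be told apart for it. Levels are given as CPM (counts relative to library size) with edgeR's TMM factors, and fold changes are KL-/- over WT. A gene was called higher or lower at a false discovery rate (FDR) under 0.05 in edgeR's quasi-likelihood test, with Benjamini-Hochberg adjustment over all 12551 genes.

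The labelled tissue was checked against its markers. The 6 skeletal muscle fibre markers summed to between 77020 and 89158 CPM in WT and between 83737 and 105252 CPM in KL-/- muscles. Of markers of other cells, 1 of 5 leukocyte genes (summed CPM 38.6 to 73.5 in WT, 20.5 to 38.4 in KL-/-), 1 of 4 fibroblast genes (612 to 2148, 356 to 1024) and 1 of 4 endothelial genes (356 to 536, 318 to 352) were lower in KL-/- muscle. In contrast, 2 of 4 Schwann cell genes (19.4 to 40.3, 45.8 to 58.5) and 1 of 3 adipocyte genes (184 to 212, 214 to 279) were higher. So were 3 of 7 slow and oxidative fibre genes (1246 to 4588, 362 to 5557). Over all genes tested, 7.35% were higher and 6.67% were lower. The slow and oxidative sum was mostly Myh2, which was not called (FDR = 0.61), nor were Myh7, Myl2 and Myl3. The called Tnni1, Tnnc1 and Tnnt1 lay between 1.35 and 11.5 CPM. The adipocyte sum was mostly Fabp4, the called gene, and Adipoq and Cfd were not called. No marker counted was at 0 in any library. The part of other cells in the results was not tested.

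The c subunits of complex V show how alike some of these genes are. Atp5g1, Atp5g2 and Atp5g3 encode the same c-ring protein behind different import signals, and the ring turns as protons pass. The last 180 coding bases of each are given from GENCODE M21 transcripts, since the 3 genes were counted apart and only Atp5g2 was called. Whether their changes differ was not tested. Capitals mark the 47 positions where the 3 genes do not all share a base, of which 41 are at the third base of a codon.
Atp5g1: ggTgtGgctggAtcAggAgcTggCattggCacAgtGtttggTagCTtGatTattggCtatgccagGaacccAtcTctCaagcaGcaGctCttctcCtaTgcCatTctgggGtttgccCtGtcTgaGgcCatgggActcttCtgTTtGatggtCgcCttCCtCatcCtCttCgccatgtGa
Atp5g2: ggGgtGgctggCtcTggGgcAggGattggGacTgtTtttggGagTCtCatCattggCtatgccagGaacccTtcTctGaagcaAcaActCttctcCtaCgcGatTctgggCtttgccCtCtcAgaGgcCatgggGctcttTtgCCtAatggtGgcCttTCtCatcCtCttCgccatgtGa
Atp5g3: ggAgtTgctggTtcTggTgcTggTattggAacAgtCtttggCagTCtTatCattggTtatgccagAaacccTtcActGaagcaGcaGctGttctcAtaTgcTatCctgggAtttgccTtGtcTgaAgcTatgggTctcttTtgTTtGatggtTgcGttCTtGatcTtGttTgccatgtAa
In this stretch Atp5g1 and Atp5g2 differed at 30 positions, Atp5g1 and Atp5g3 at 36, and Atp5g2 and Atp5g3 at 40. Over the aligned coding sequence the longest identical run was 21 bases for Atp5g1 and Atp5g2, 11 for Atp5g1 and Atp5g3 and 8 for Atp5g2 and Atp5g3. The complex IV pairs were less alike, with 66.6% identical coding bases for Cox6a1 and Cox6a2, 66.9% for Cox7a1 and Cox7a2 and 68.6% for Cox8a and Cox8b.

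Few genes of complexes II to V changed in KL-/- muscle. Of the 55 genes, 2 were higher (Cox6a2 and Atp5g2) and 1 was lower (Cox11), where 7.35% of all genes tested were higher and 6.67% were lower. The median log2 fold change was 0.0019 (range −0.28 to 0.36), beside −0.016 over all genes, and 30 genes had a positive value. At an unadjusted p under 0.05, 6 genes were higher and 1 was lower, with 15.8% and 16.4% of all genes as background. None of the 55 reached an absolute log2 fold change of 0.5. The 95% intervals bound most of these changes closely. For 53 of the 55 genes the interval lay within 0.5 on the log2 scale of no change, with Cox4i2 and Cox6a2 as the exceptions. This held for 6983 of all 12551 genes, but the 2 sides differ in precision. The median half-width of the interval was 0.18 for the 55 genes and 0.25 over all genes. How much of the contrast comes from precision was not tested. Together the 55 genes took 2.66% ± 0.0865 of counts in WT and 2.58% ± 0.208 in KL-/- muscles (SD, n = 4). These shares are of library totals, without TMM factors. With TMM factors the 55 genes summed to between 24147 and 26519 CPM in WT and between 24264 and 29420 CPM in KL-/- muscles. In whole muscle, fewer cells of a type and less RNA per cell cannot be told apart.

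**Figure D1:**
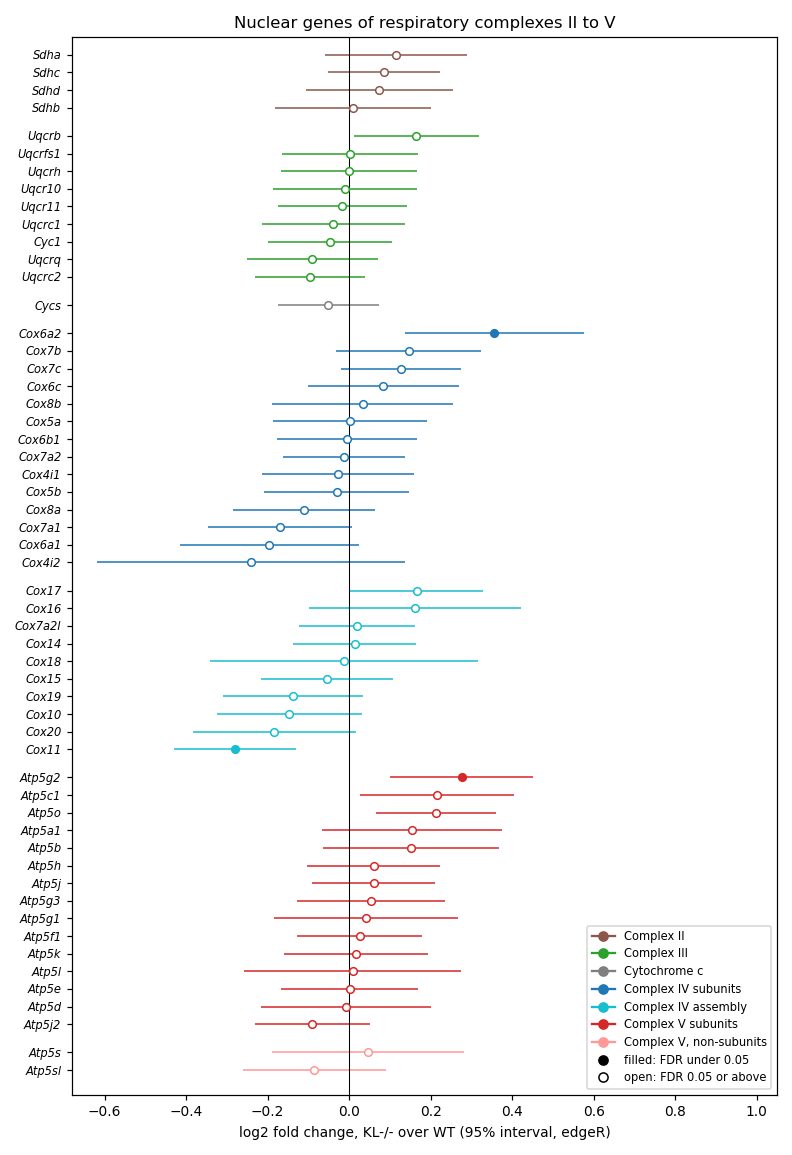
Log2 fold change (KL-/- over WT, horizontal axis) of each of the 55 genes, grouped and coloured by complex, with 95% intervals from edgeR's quasi-likelihood fit of 4 WT and 4 KL-/- samples. Filled points mark Cox6a2, Atp5g2 and Cox11, the genes with an FDR under 0.05, and all points lie between −0.28 and 0.36.

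Complex II oxidises succinate and links the citric acid cycle to the respiratory chain. None of its 4 genes was called by edgeR or by DESeq2, and none had an unadjusted p under 0.05 in edgeR. Sdha, the flavoprotein that holds the catalytic site, was at 1486, 1465, 1320 and 1356 CPM in WT replicates 1 to 4 and at 1449, 1475, 1508 and 1664 CPM in KL-/- replicates 1 to 4. The genotypes overlapped, and the log2 fold change was 0.12 (95% interval −0.059 to 0.29, FDR = 0.33). The log2 fold changes of Sdhb, the iron-sulfur protein, and of Sdhc and Sdhd, the membrane anchors, were 0.0093, 0.086 and 0.074. All 4 values were positive with TMM factors and all 4 were negative with library totals, which shifted the median of all genes to −0.13.

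Sdha also held the most matches to NRF1 letters among the promoters examined. NRF1 (nuclear respiratory factor 1) and ETS factors such as GABP are known activators of respiratory genes. The 250 bases before the start were available for 40 of the 55 genes (RefSeq, GRCm38.p6) and were searched on both strands for GCGCA followed by any base and GCGC (NRF1) and CCGGAAG (ETS), and in none of the 40 did matches to the 2 motifs overlap. The NRF1 letters were found in 6 promoters (15%), beside 3.86% of all 27025 promoters, and the ETS letters in 11 (27.5%), beside 7.05%. The 2 sides are not alike in choice. For the 40 genes the promoter nearest the counted gene start was taken, and for the background the first listed per gene. The background also holds genes that were not counted in this muscle. Both are descriptions of sequence and not of binding. The promoters of Sdha (chr13:74350241-74350490, minus strand), with 3 matches, and of Atp5g2 (chr15:102671048-102671297, minus strand), the called gene with 1 match, are given with the NRF1 letters in capitals.
Sdha: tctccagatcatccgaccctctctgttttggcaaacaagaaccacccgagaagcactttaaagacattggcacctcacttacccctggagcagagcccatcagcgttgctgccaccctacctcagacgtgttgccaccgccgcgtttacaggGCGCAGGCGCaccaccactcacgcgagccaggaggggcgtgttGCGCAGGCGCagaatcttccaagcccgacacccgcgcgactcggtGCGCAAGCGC
Atp5g2: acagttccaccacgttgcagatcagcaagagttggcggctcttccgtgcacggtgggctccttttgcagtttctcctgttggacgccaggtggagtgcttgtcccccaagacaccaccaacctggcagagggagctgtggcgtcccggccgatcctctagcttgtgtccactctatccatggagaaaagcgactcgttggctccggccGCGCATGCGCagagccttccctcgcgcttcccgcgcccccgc
Cox11, the gene called lower, had no match to either motif in its 250 bases. The third called gene, Cox6a2, was among the 15 genes without a promoter here and was not searched. Expression of Nrf1 itself had a log2 fold change of 0.27 (SE 0.0824, FDR = 0.055) and was not called. It was picked for the smallest FDR among 13 regulators of respiratory genes. Their log2 fold changes ran from −0.51 to 0.52, with 5 below 0. A link between Nrf1 and the 55 genes was not tested.

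In complex III, none of 9 genes was called by edgeR or DESeq2, and 1, Uqcrb, had an unadjusted p under 0.05. The median log2 fold change was −0.017, with 7 of 9 values below 0. The Rieske iron-sulfur protein Uqcrfs1, which takes the electron from ubiquinol, was at 672, 666, 613 and 617 CPM in WT and at 620, 585, 658 and 708 CPM in KL-/- replicates 1 to 4. Its group means differed by less than their spread (642 ± 31.6 and 643 ± 52.7 CPM, SD, n = 4). Core protein Uqcrc1 was at 1095, 1111, 1005 and 1018 CPM in WT and at 1027, 934, 1016 and 1138 CPM in KL-/- muscles, with overlap and a log2 fold change of −0.039 (FDR = 0.76). The complex III values ran from −0.096 for the other core protein, Uqcrc2, to 0.17 for the supernumerary subunit Uqcrb (SE 0.068, FDR = 0.13). Cytochrome c, the mobile carrier encoded by Cycs, had a log2 fold change of −0.051 (SE 0.055, FDR = 0.55).

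Complex IV held the largest increase of the 55 genes. Cox6a2, the heart and muscle form of subunit VIa (chromosome 7, 128205435 to 128206366 of mm10), was at 695, 616, 560 and 680 CPM in WT and at 840, 692, 875 and 859 CPM in KL-/- replicates 1 to 4. The highest WT sample lay just above KL-/- replicate 2, and the other 3 KL-/- samples were above all WT samples. The log2 fold change was 0.36 (SE 0.098, FDR = 0.041), a level 1.28 times that of WT (95% interval 1.10 to 1.49). Exons of Cox6a2 overlap a gene on the other strand, Itgad, and whether strand was used in counting is not given in the sources used here. Of the other 13 subunits none was called. The median over the 14 was −0.0085, with 6 positive values.

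**Figure D2:**
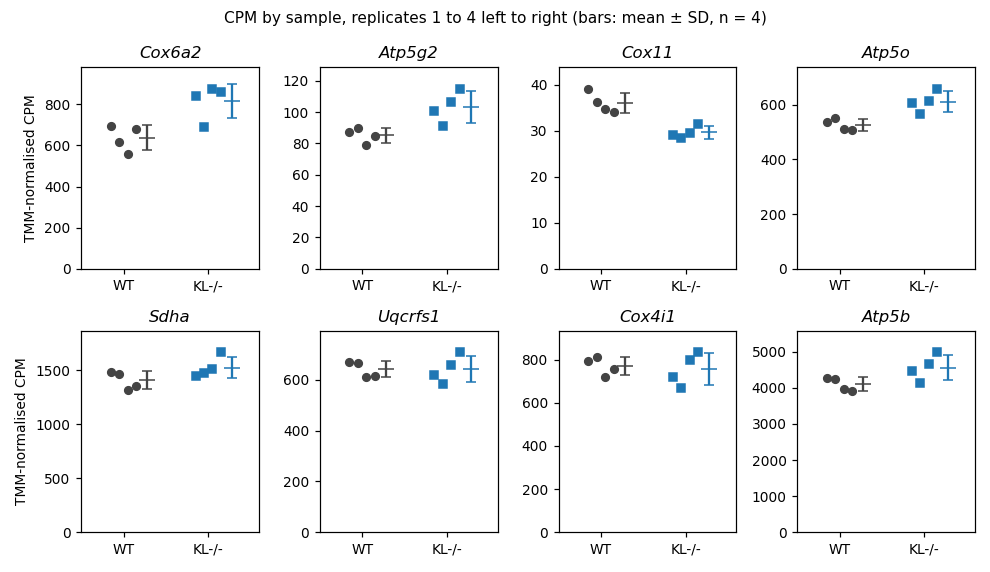
TMM-normalised CPM (vertical axes, from 0) of the 3 called genes, Atp5o and a core gene of each complex in each of 4 WT samples (circles) and 4 KL-/- samples (squares), replicates 1 to 4 from left to right, with mean ± SD. Atp5g2 and Atp5o lie above WT and Cox11 below WT in every KL-/- sample, while Cox6a2, Sdha, Uqcrfs1, Cox4i1 and Atp5b overlap.

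Cox6a1, the form of subunit VIa found in most tissues, was at 18.5, 22.7, 19.2 and 18.6 CPM in WT and at 19.6, 17, 15.5 and 16.9 CPM in KL-/- muscles, with overlap (log2 fold change −0.20, FDR = 0.20). Within a sample the ratio of 2 paralogs does not depend on the scaling of the library, and it was formed from counts per base of gene. The ratio of Cox6a2 to Cox6a1 was 30.3, 21.9, 23.6 and 29.5 in WT and 34.7, 32.9, 45.8 and 41.1 in KL-/- replicates 1 to 4, without overlap. These ratios were chosen as a description and carry no test, and 10.2% and 9.47% of all genes tested had every KL-/- sample above or below every WT sample in CPM.

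The other paralogs did not follow a single direction. For subunit VIIa the ratio of the muscle form Cox7a1 to Cox7a2 was lower in KL-/- muscle, at 3.92, 4.15, 4.20 and 4.06 in WT and 3.35, 3.66, 3.80 and 3.80 in KL-/- samples, without overlap. For subunit VIII the ratio of the muscle form Cox8b to Cox8a was 16.4, 16.3, 13.6 and 16.1 in WT and 17.2, 16.7, 17.5 and 17.8 in KL-/- samples, and these did not overlap either. None of these 4 genes was called on its own, with log2 fold changes of −0.17 for Cox7a1 (FDR = 0.17), −0.012 for Cox7a2, 0.033 for Cox8b and −0.11 for Cox8a.
Cox4i1, the main form of subunit IV, was at 794, 811, 719 and 754 CPM in WT and at 721, 669, 799 and 833 CPM in KL-/- muscles. Its paralog Cox4i2, known from lung and from cells under low oxygen, lay between 2.23 and 3.77 CPM, and its ratio to Cox4i1 overlapped between the genotypes. Subunits Cox6b1 and Cox7b, whose paralogs Cox6b2 and Cox7b2 were not analysed here, had log2 fold changes of −0.0051 and 0.15, and Cox7a2l, a relative of subunit VIIa that joins complexes III and IV, had 0.018, none of them called.

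**Figure D3:**
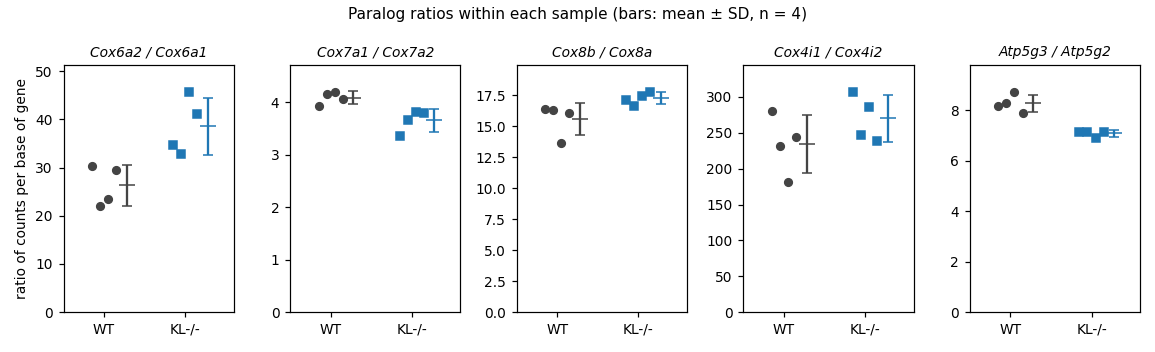
Ratio of counts per base of gene between paralogs (vertical axes, from 0) in each of 4 WT (circles) and 4 KL-/- samples (squares), replicates 1 to 4 from left to right, with mean ± SD. Cox6a2 to Cox6a1 and Cox8b to Cox8a are higher and Cox7a1 to Cox7a2 and Atp5g3 to Atp5g2 lower in every KL-/- sample, and Cox4i1 to Cox4i2 overlaps.

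Among the 10 assembly and copper-handling factors of complex IV, Cox11 was lower in KL-/- muscle. Cox11 (chromosome 11, 90638184 to 90645977 of mm10) delivers copper to the catalytic core of the enzyme. It was at 39.1, 36.2, 34.7 and 34.1 CPM in WT and at 29, 28.4, 29.5 and 31.5 CPM in KL-/- replicates 1 to 4, every KL-/- sample below every WT sample. The log2 fold change was −0.28 (SE 0.067, FDR = 0.025), and exons of Cox11 overlap Tom1l1 on the other strand. Cox17, the chaperone that carries copper to this step, had a value of the other sign, 0.17 (SE 0.073, FDR = 0.15), which was not called. The remaining 8 ranged from −0.18 for Cox20 to 0.16 for Cox16.

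Complex V subunits had mostly positive but small values, and Atp5g2 was higher. With TMM factors 13 of 15 subunits had a positive log2 fold change (median 0.053), beside 47.6% of all genes. With library totals 5 of 15 did (median −0.065). The subunits moved together by sample. Above the WT mean lay 13, 12, 0 and 5 of them in WT and 10, 4, 14 and 14 in KL-/- replicates 1 to 4. With TMM factors 28 of 37 complex I subunits and 10 of 14 citric acid cycle enzymes were positive as well. Atp5g2 (chromosome 15, 102662868 to 102671047 of mm10), the least abundant c-ring gene, was at 87.4, 90.1, 78.7 and 84.8 CPM in WT and at 101, 90.8, 107 and 115 CPM in KL-/- replicates 1 to 4. Every KL-/- sample was above every WT sample, and the closest pair was KL-/- replicate 2 and WT replicate 2. The log2 fold change was 0.28 (SE 0.079, FDR = 0.046), a level 1.21 times that of WT (95% interval 1.07 to 1.37). Exons of Atp5g2 overlap Mir688 on the same strand.
Per length of gene, Atp5g3 was at 1090 ± 51.9, Atp5g1 at 687 ± 20.9 and Atp5g2 at 132 ± 7.48 CPM per kb in WT muscle (SD, n = 4), and the order was the same in KL-/- muscle (1130 ± 109, 707 ± 101 and 159 ± 15.5). The ratio of Atp5g3 to Atp5g2 was 8.18, 8.30, 8.74 and 7.90 in WT and 7.15, 7.15, 6.90 and 7.16 in KL-/- samples, without overlap. Atp5g1 and Atp5g3 themselves had log2 fold changes of 0.041 and 0.053 (FDR = 0.81 and 0.69).

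The catalytic F1 head of complex V, formed by Atp5a1 and Atp5b, held the highest levels of the set per length of gene (Atp5b 2187 ± 102 and Atp5a1 1280 ± 56.2 CPM per kb in WT, SD, n = 4). Atp5b was at 4289, 4258, 3962 and 3926 CPM in WT and at 4474, 4148, 4651 and 4984 CPM in KL-/- muscles, with overlap (log2 fold change 0.15, 95% interval −0.063 to 0.37, FDR = 0.30). Atp5a1 had a log2 fold change of 0.15 (FDR = 0.30). Atp5o, the subunit that ties the head to the peripheral stalk, was at 537, 553, 511 and 508 CPM in WT and at 606, 566, 615 and 658 CPM in KL-/- muscles. The genotypes did not overlap, but the log2 fold change of 0.21 (SE 0.066, FDR = 0.058) was not called by edgeR. DESeq2 called it (adjusted p = 0.011). Exons of Atp5o overlap Donson on the same strand and D430001F17Rik and Gm15976 on the other strand. Atp5c1, the rotating central stalk, had 0.22 (FDR = 0.11). The genes given with an unadjusted p under 0.05 but no call were picked after their values were seen.

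The calls lay close to the threshold, while the fold changes varied less. With each library left out in turn, the log2 fold change ran from 0.30 to 0.44 for Cox6a2, from 0.22 to 0.34 for Atp5g2 and from −0.31 to −0.24 for Cox11. Cox6a2 and Atp5g2 passed the FDR threshold in 1 of the 8 fits that leave out 1 library, the one without KL-/- replicate 2, and Cox11 in 3 of 8. Without KL-/- replicate 2, 6 genes were higher (12.1% of all genes) and 1 was lower (9.83%), with Uqcrb, Cox7b, Atp5c1 and Atp5o added, and the median of the 55 was 0.063. Without WT replicate 1, 2 or 3 or KL-/- replicate 1 or 3, none of the 55 was called by edgeR, and calls over all genes were then 9.51%, 6.21%, 6.17%, 9.75% and 6.07%, in place of 14%. Scaled by library totals alone, none was higher (3.92% of all genes) and 8 were lower (16.9%), Cox11 among them, and the log2 fold changes of Cox6a2 and Atp5g2 were 0.24 (FDR = 0.10) and 0.16 (FDR = 0.16). With a correction for gene length, Cox6a2 and Cox11 passed and Atp5g2 did not (FDR = 0.050), and Cox7a1, Cox20 and Atp5j2 were lower as well, making 1 higher (8.1% of all genes) and 4 lower (6.45%).

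The genes of all the complexes were spread more widely over KL-/- than over WT samples. The median deviation of the 55 genes from the WT mean was −0.032, −0.12, 0.042 and 0.14 on the log2 scale in KL-/- replicates 1 to 4, and 0.048, 0.053, −0.073 and −0.029 in WT replicates. In KL-/- replicate 2, 11 of 55 genes lay above the WT mean, and in KL-/- replicate 4, 49 did. The span over samples was 0.26 in KL-/- and 0.13 in WT muscles. Complex I subunits (0.24 and 0.14) and citric acid cycle enzymes (0.21 and 0.11) also had a wider span in KL-/- muscles. The spans were closer for assembly factors (0.14 and 0.12), mitochondrial ribosomal proteins (0.12 and 0.11) and cytosolic ribosomal proteins (0.14 and 0.11). For regulators of respiratory genes the span was narrower in KL-/- muscles (0.14 and 0.20). The median of all genes is held near 0 by the TMM scaling. Of the 55 genes, 45 (81.8%) had a larger coefficient of variation in KL-/- muscle (median 8.29%) than in WT (5.37%), beside 57.2% of all genes. The genes move together by sample, so this count does not hold 55 separate observations. The difference in spread between the genotypes was not tested. KL-/- replicate 2 also had the most Myh4, the type IIb myosin (62798 CPM, other KL-/- samples 42976 to 45341, WT 32439 to 37575). It had the least Myh2, the type IIa myosin (292 CPM, other KL-/- samples 3445 to 5441, WT 1169 to 4436). Myoglobin (Mb) was lowest there too (2391 CPM, other KL-/- samples 4558 to 5445, WT 4404 to 6408). The other slow and oxidative fibre genes did not all follow Myh2. In this sample Myl3 was at its lowest, and Myh7 and Myl2 lay within the WT range. Tnni1, Tnnc1 and Tnnt1 lay above every WT sample. KL-/- replicate 4, with the highest median of the 55 genes, had Myh4 at 43066, Myh2 at 3445 and Mb at 4560 CPM. Each of these lay within the range of the other KL-/- samples. Myh2 and Mb were highest among KL-/- samples in replicate 3 (5441 and 5445 CPM), where the median of the 55 genes was 0.042. The part of fibre composition in the spread was not tested.

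**Figure D4:**
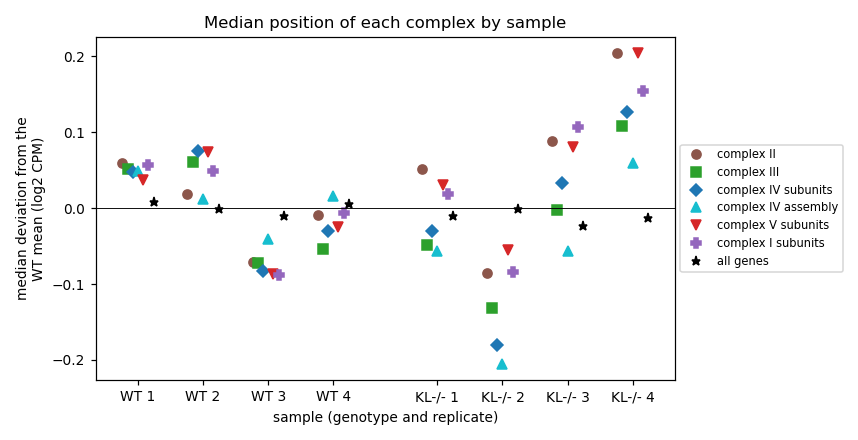
Median deviation from the WT mean (log2 CPM, vertical axis) of the genes of each complex, of complex I and of all genes in each of the 4 WT and 4 KL-/- samples. The complexes move together by sample, from below 0 in KL-/- replicate 2 to above 0 in KL-/- replicate 4. The median of all genes is held near 0 by the TMM scaling.

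Related genes outside the set were counted in the same fit. Of 32 assembly factors of complexes II to V named otherwise, none was higher (7.35% of all genes) and 8 (25%) were lower (6.67% of all genes). Their median log2 fold change was −0.14. At an unadjusted p under 0.05, 1 was higher (15.8% of all genes) and 13 were lower (16.4%). Taco1, a translational activator of the mitochondrial Cox1 message, was at 68.6, 62.7, 67.1 and 67.0 CPM in WT and at 47.4, 55.2, 45.7 and 48.1 CPM in KL-/- muscles (log2 fold change −0.43, SE 0.070, FDR = 0.0070). Coa3, which works with the same message, was at −0.30 (FDR = 0.011), and Coa6 and Coa7, further complex IV factors, at −0.31 (FDR = 0.026) and −0.29 (FDR = 0.027). With library totals 15 of the 32 were lower (16.9% of all genes) and in DESeq2 8 were (9.11%). Leaving out WT replicates 1 to 4 in turn gave 4, 3, 4 and 3 lower, and leaving out KL-/- replicates 1 to 4 gave 2, 7, 2 and 2, with 2.73% to 9.83% of all genes lower over these fits. None of the 32 was higher in any of them. This list, like the others, was chosen with earlier results of these data known, and its difference from all genes was not tested.
Of 37 complex I subunits, Ndufb11 was higher and Ndufs4 lower (median 0.050). For this and the lists that follow, 7.35% of all genes were higher and 6.67% lower in edgeR. At an unadjusted p under 0.05 these shares were 15.8% and 16.4%. Of 77 mitochondrial ribosomal proteins none was higher in edgeR and 1 in DESeq2, with 8 at an unadjusted p under 0.05, and 4 were lower, Mrps16, Mrps12, Mrps2 and Mrpl19 (median −0.00075). Of 76 cytosolic ribosomal proteins 70 were higher (median 0.40). Of 14 citric acid cycle enzymes 1 was higher, Idh2, at 151, 130, 134 and 184 CPM in WT and 351, 200, 382 and 369 CPM in KL-/- samples, with KL-/- replicate 2 the lowest of its genotype (list median 0.11). Of 13 regulators of respiratory genes none was called by edgeR (median 0.064), 3 had an unadjusted p under 0.05, and DESeq2 called 1 higher and 1 lower.

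**Figure D5:**
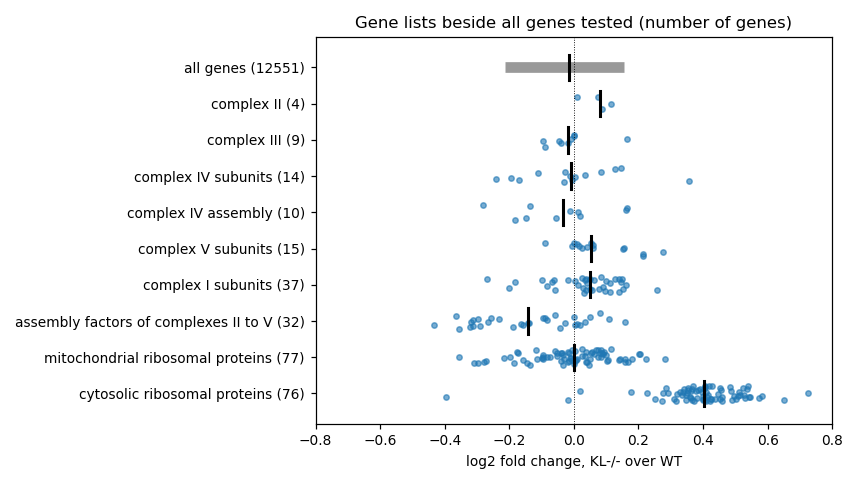
Log2 fold change (KL-/- over WT, horizontal axis) of the genes of each complex and of the comparison lists, one point per gene, with the list median as a black bar and the quartile range of all 12551 genes as a grey bar. The complexes centre near 0, the assembly factors at −0.14 and the cytosolic ribosomal proteins at 0.40.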

How the data were processed

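The authors sequenced muscle RNA of 8 mice, 4 per genotype, from 100 ng each. Libraries are named as mRNA in the methods and as total RNA in the labels. Per the labels and methods, reads were checked with FastQC, placed on mm10 by STAR, filtered for alignment quality and assigned to genes by featureCounts. Annotation version and strand setting are not given in the sources used here. The deposited values are whole-number counts per gene without normalization, with the gene length that the authors deposited beside them. No column was left unmapped, and genotypes came from the labels.

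Tests used edgeR 4.0.16 under R 4.3.3: TMM factors, genotype as the only term, the quasi-likelihood test, and Benjamini-Hochberg adjustment over 12551 genes, all of which passed the filter on low counts. Standard errors and 95% intervals were derived from the test statistic. The smallest library, with 20860262 counts, puts 3 counts at 0.144 CPM, and precision covers counting error and the spread between 4 mice. Scripts were tested on simulated data. Alternatives were DESeq2 1.42.0, the likelihood ratio and edgeR 3 tests, RLE factors, library totals, TMM factors without the 55 genes, a minimum of 10 counts in every sample, no filter, a gene length offset, the replicate number as a block, and samples left out.

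Named genes are called genes (up to 4 per complex by FDR), the paralogs, Sdha, Uqcrc1, Uqcrfs1, Cox4i1 and Atp5b. The other genes named were added after values were seen. The members and lists were chosen with earlier results of these data known. Sequences came from GENCODE M21 and RefSeq. Exons of 16 of the 55 genes overlap a gene on the other strand, and exons of 4 overlap another gene on the same strand.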

Additional observations from a re-analysis of the deposited data

Results flagged for a closer look

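Of 110 groups of 4 samples examined (55 genes in each genotype), 2 had a sample far from the other 3, and chance alone flags about 1 in 20 groups. Cox6a1 was highest in WT replicate 2 at 22.7 CPM, with the nearest other WT sample at 19.2 CPM. Atp5g1 was lowest in KL-/- replicate 2 at 483 CPM, with the nearest other KL-/- sample at 650 CPM.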

How the results depend on the processing

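With library totals 0 genes were called higher and 8 lower, the median of the 55 was −0.12, and the median of all genes moved to −0.13. Of the 55 log2 fold changes 19 changed sign there, and among genes named in the report these were −0.0024 for Sdha, −0.11 for Sdhb, −0.032 for Sdhc, −0.043 for Sdhd, −0.12 for Uqcrfs1, −0.083 for Cox8b, −0.10 for Cox7a2l, −0.076 for Atp5g1 and −0.065 for Atp5g3. With the gene length offset 1 was higher and 4 were lower, and 11 of 55 changed sign, among the named genes Sdhb (−0.0068), Uqcrfs1 (−0.0032), Cox8b (−0.092) and Atp5g3 (−0.0021). With RLE factors, in DESeq2 and with at least 10 counts in every sample 3 changed sign each, with Cox6b1 at 0.0030 and 0.0031 and Uqcrfs1 at −0.0013. With KL-/- replicates 2 and 3 both left out, an alternative chosen after seeing the data, 2 genes were higher and 0 lower, 12 of 55 changed sign, and of the named genes Uqcrc1 (0.041), Cox4i1 (0.020), Cox6b1 (0.050) and Cox7a2 (0.045) did, while Uqcrfs1, Cox8b and Atp5g3 stood at 0.055, 0.14 and 0.13.

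Correlations between same-numbered samples were −0.15, 0.18, −0.37 and 0.017, and pairs with different numbers ran from −0.29 to 0.30. These values do not show a pairing, and they cannot exclude one. With the replicate block 671 genes were called, 0 of the 55 higher and 0 lower, 1 of the 32 assembly factors was lower, and 3 of 55 signs changed, with Uqcrfs1 at −0.00072.

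With each sample left out in turn, genes called ranged from 762 (without KL-/- replicate 3) to 2755 (without KL-/- replicate 2), members called higher from 0 to 6 and lower from 0 to 1. The range crossed 0 for 23 of 55 genes, and among the named genes it was −0.046 to 0.071 for Sdhb, −0.091 to 0.014 for Uqcrc1, −0.048 to 0.053 for Uqcrfs1, −0.077 to 0.036 for Cox4i1, −0.048 to 0.063 for Cox6b1, −0.053 to 0.032 for Cox7a2, −0.037 to 0.11 for Cox8b, −0.025 to 0.063 for Cox7a2l, −0.0047 to 0.15 for Atp5g1 and −0.0075 to 0.11 for Atp5g3. The causes were not tested. The likelihood ratio test, the edgeR 3 test, no filter and TMM factors without the 55 genes left 2 higher and 1 lower, and of these the edgeR 3 test and the last were chosen after seeing the data.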
